A study of Mus musculus with 4 samples.

Results

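Peripheral nerve myelin is the many-layered membrane that Schwann cells wrap around axons, and its structural proteins are made in those cells in large amounts. Its compact layers are held together by membrane and basic proteins, while adhesion, junction and scaffold proteins sit in the non-compact parts that face the axon, the mesaxon and the basal lamina. The 8 genes described here encode such proteins: the compact myelin proteins Pmp22, Mbp and Pllp, the scaffold proteins Prx and Drp2, and the non-compact myelin proteins Mag, Cldn19 and Ncmap. They were picked by gene symbol, with earlier results of these data known. Each symbol stood in 1 of the 48431 gene rows of the deposited table.

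The values come from ribosome profiling, which sequences the mRNA pieces of 28 to 34 nt that ribosomes protect. The tissue was the dorsal root ganglion, which holds sensory neuron cell bodies, their glia and the proximal myelinated axons. All 4 libraries came from wild-type female SW mice given paclitaxel, a microtubule-stabilising chemotherapy drug, by 4 intraperitoneal injections of 4 mg/kg, 1 every other day. There was 1 group, so no value below is an effect of paclitaxel; untreated mice and RNA libraries were not analysed here. Separate animals are not stated for the replicates.

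The deposited values are used as CPM, a gene's share of the assigned reads scaled to 1000000, with no correction for gene length. From the value of 1 read, the libraries held 5731508, 9255060, 14633421 and 10424949 reads in replicates 1 to 4. Genes that reached 1 CPM in each of the libraries counted as detected, which held for 14726 genes, or 30.4% of the table. All 8 myelin genes were detected. Mitochondrial ribosomal RNA differed between libraries, with mt-Rnr2 at 23520.5, 61455, 0 and 52082 CPM in replicates 1 to 4, which alters the share left for every other gene, so library differences are also given after rescaling. Replicates are named by number only, and the numbers carry no order.

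Pmp22 had the most reads of the set. Pmp22 (ENSMUSG00000018217.12, GRCm38 chromosome 11, 63128982 to 63159547, plus strand) encodes a tetraspan membrane protein of compact myelin, and its duplication causes a common inherited demyelinating neuropathy in humans. It stood at 5184, 4238, 5183 and 3352 CPM in replicates 1 to 4. Replicates 1 and 3 were nearly equal and highest, and replicate 4 was lowest. Its mean of 4489 ± 879.7 CPM (SD, n = 4) ranked 11 among all 48431 genes.

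Mbp (ENSMUSG00000041607.16, chromosome 18, 82475146 to 82585637, plus strand) encodes the basic protein that holds the cytoplasmic faces of the membrane together, and is made by oligodendrocytes as well as Schwann cells. It stood at 3052, 2396, 3069 and 1836 CPM in replicates 1 to 4. The pattern was that of Pmp22, with replicates 1 and 3 together at the top and replicate 4 at the bottom. Its mean was 2588 ± 591 CPM (SD, n = 4), rank 27. Pllp (ENSMUSG00000031775.4, chromosome 8, 94674894 to 94696278, minus strand), which encodes plasmolipin, a small tetraspan protein of myelin membrane, was far lower at 117, 97.7, 128 and 84.2 CPM. Here replicate 3 lay above replicate 1, and replicate 4 was again lowest.

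The scaffold pair differed in level. Prx (ENSMUSG00000053198.13, chromosome 7, 27499324 to 27520214, plus strand) encodes periaxin, which ties the outer Schwann cell membrane to the basal lamina through the dystroglycan complex. It stood at 898, 725, 898 and 639 CPM in replicates 1 to 4, a mean of 790.1 ± 129.6 CPM (SD, n = 4) and rank 132. Drp2 (ENSMUSG00000000223.13, chromosome X, 134404551 to 134456573, plus strand) encodes the dystrophin-related protein that binds periaxin in that complex. It stood at 179.7, 129, 182 and 106 CPM. In both genes replicates 1 and 3 were close to each other and above the others.

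The 3 genes of non-compact myelin lay near 100 CPM. Mag (ENSMUSG00000036634.15, chromosome 7, 30899176 to 30914873, minus strand), an adhesion glycoprotein of the membrane next to the axon that oligodendrocytes also make, stood at 136, 102, 122 and 93.3 CPM. Cldn19 (ENSMUSG00000066058.11, chromosome 4, 119255414 to 119262438, plus strand), a claudin of Schwann cell tight junctions, stood at 123.5, 94.3, 114 and 73.3 CPM. Ncmap (ENSMUSG00000043924.16, chromosome 4, 135369576 to 135398227, minus strand), a small membrane protein of non-compact myelin, stood at 89.9, 66.6, 75.6 and 45.3 CPM. In these 3 genes replicate 1 was highest, replicate 3 followed, and replicate 4 was lowest. Ncmap was the lowest of the set and had the widest spread between libraries, with a coefficient of variation of 26.9%.

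**Figure D1:**
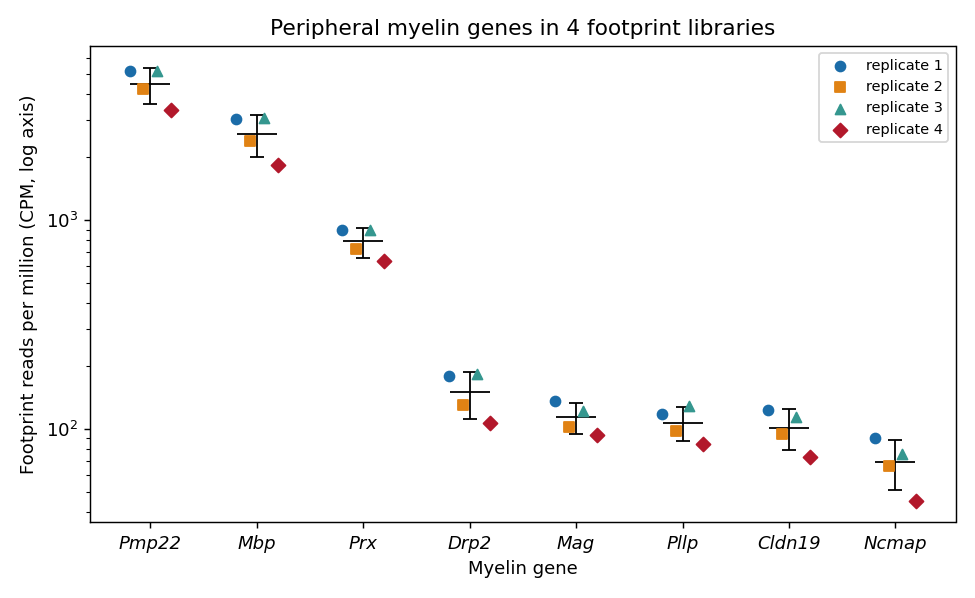
CPM (log axis) of the 8 myelin genes in each of the 4 libraries, with the mean as a long tick and the SD as a bar (n = 4). Pmp22 and Mbp lie at 1836 CPM or more, rounded, in every library, Prx between 639 and 898 CPM, and the other 5 genes below 183 CPM.

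Together the 8 genes took 9781, 7849, 9773 and 6229 CPM in replicates 1 to 4, a mean of 8408 ± 1714 CPM (SD, n = 4), or 0.978%, 0.785%, 0.977% and 0.623% of the assigned reads. Pmp22 made up 53.4% and Mbp 30.8% of this sum, and Prx 9.40%. The other 5 genes each made up between 0.825% and 1.78%. The median of the 8 genes lay 2.69 ± 0.24 above the median detected gene on the log2(CPM + 1) scale, in 4 of 4 libraries. The 2-sided exact sign-flip permutation p was 0.13, the smallest that 4 libraries allow, so this level could not pass 0.05.

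Since CPM grows with the length of the coding sequence, the genes were compared with each other per kilobase of coding sequence, taking the longest that is annotated. These lengths ran from 354 nt in Ncmap and 480 nt in Pmp22 to 2943 nt in Drp2 and 4173 nt in Prx. Pmp22 was at 10801, 8829, 10798 and 6983 CPM per kilobase in replicates 1 to 4, and its mean of 9353 CPM per kilobase ranked 2 among 13558 detected genes with a coding length. Mbp was at 4070, 3195, 4092 and 2448 CPM per kilobase and ranked 11. Prx, next after these as CPM, was no longer apart from the small membrane proteins. Ncmap, Pllp and Prx averaged 196 ± 52.8, 196 ± 36.1 and 189 ± 31.1 CPM per kilobase (SD, n = 4), and ranked 687, 690 and 711.

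Of the 7 neighbours in the order per kilobase, 5 pairs had the same gene higher in 4 of 4 libraries. Pmp22 exceeded Mbp by a log2 difference of 1.45 ± 0.05 per kilobase, and Mbp exceeded Ncmap by 4.15 ± 0.13. Ncmap and Pllp differed by −0.02 ± 0.23, with Ncmap higher in 2 of 4 libraries, and Pllp and Prx by 0.04 ± 0.06, with Pllp higher in 3 of 4, so neither pair was separated beyond its spread. Prx lay above Cldn19 by 0.34 ± 0.11, Cldn19 above Mag by 1.31 ± 0.12, and Mag above Drp2 by 0.27 ± 0.16. With 4 libraries no single pair can reach an exact sign-flip permutation p under 0.13.

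The order among the small genes depends on which transcripts are translated. Mbp has 15 annotated coding transcripts with coding lengths of 165 to 750 nt and a median of 474 nt. With the median coding length in place of the longest, Mbp was at 5460 CPM per kilobase against 9353 for Pmp22. Pmp22 then exceeded Mbp by a log2 difference of 0.78 ± 0.05. Pllp averaged above Ncmap by 0.14 ± 0.23, and Ncmap above Prx by 0.19 ± 0.21, each in 3 of 4 libraries. Neither of these last pairs was separated beyond its spread. Prx has a short form of 444 nt beside its long one, and gene-level values do not show which form the reads came from.

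**Figure D2:**
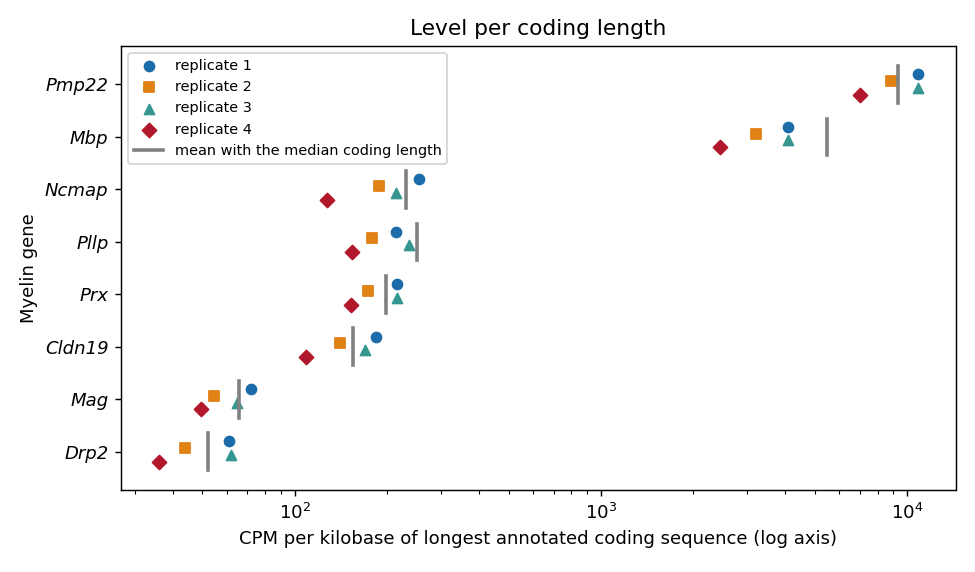
CPM per kilobase of longest coding sequence (log axis) in each library, with the mean over the 4 libraries at the median annotated coding length as a grey bar. Ncmap, Pllp and Prx overlap between 128 and 254 CPM per kilobase, and the bar of Mbp stands at 5460, to the right of its points.

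Reads could be assigned without ambiguity for most of the set. In the longest coding sequences of Mbp, Pmp22, Mag, Ncmap and Drp2, every word of 30 nt, about the length of a footprint, was absent, on either strand, from the annotated transcripts of all other genes. The share was 99.95% for Prx and 90.4% for Cldn19, but 36.9% for Pllp. The words that Pllp shares are those of Gm45767, which is annotated on the opposite strand at the same place. No gene row of the deposited values carries the name Gm45767, so it has no level here. Whether the counting used strand was not given in the sources used here, so the Pllp level is uncertain. The opposite-strand gene at Prx, Gm15541, stood at 39.6, 18.2, 27.7 and 24.6 CPM, and the one at Cldn19, Gm12927, at 0, 0, 0.0683 and 0.192 CPM.

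The 8 genes moved together between libraries. Every one of them had replicates 1 and 3 above replicate 2, and replicate 2 above replicate 4. This order, picked out after the values were seen, was found in 15.9% of all detected genes. Ratios of replicate 1 to replicate 4 ran from 1.39 in Pllp to 1.98 in Ncmap, and 13.5% of detected genes had a ratio at least as high as that of Pllp. Replicate 4 was the lowest library of all 8 genes, against 33.9% of detected genes. Replicate 1 was highest in 5 of the 8 (33.8% of detected genes) and replicate 3 in the other 3 (36.8%). With TMM factors replicate 1 was highest in 7 (27.8%) and replicate 3 in 1 (23.1%).

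Counting error is small beside these differences. The genes had between 472 and 75847 reads per library, and 95% Wilson intervals of replicates 1 and 4 were apart in 8 of 8 genes, as were those of replicates 3 and 4. Those of replicates 2 and 4 were apart in 7 of 8, and those of replicates 1 and 3 overlapped in 7 of 8. Those of replicates 2 and 3 were apart in 7 of 8, the exception being Ncmap. The intervals cover counting error only. The order of libraries held in 8 of 8 genes after rescaling to the reads outside mt-Rnr1 and mt-Rnr2, after leaving all mitochondrial genes and the 20 genes of highest mean out of the total, and with trimmed-mean (TMM) factors, while its share among detected genes fell to 11.4%, 10.7% and 8.79%. With TMM factors the ratio of replicate 1 to replicate 4 was 1.30 to 1.85 over the 8 genes.

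Ratios between the myelin genes were steadier than the genes themselves. Over the 28 pairs of members the SD of the log2 ratio had a median of 0.11 and ran from 0.05 to 0.22, whereas the SD of the members' own log2 levels ran from 0.24 to 0.41. Library scaling nearly cancels in a ratio but not in a gene's own level. With TMM factors the members' own SDs ran from 0.18 to 0.37, which overlaps the range of the pairs. The steadiest ratio was Pmp22 over Mbp, at 0.80 ± 0.05 on the log2(CPM + 1) scale (SD, n = 4), followed by Mbp over Cldn19, at 4.66 ± 0.05. The least steady was Pllp over Ncmap, at 0.64 ± 0.22. Between a myelin gene and a pan-neuronal gene the median SD was 0.34 over 80 pairs, and between 2 pan-neuronal genes it was 0.18 over 45 pairs, with a range of 0.03 to 0.43. The pairs share genes and libraries, so these spreads are a description.

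The sequence in front of 4 of these genes is shown as a description. Whether it has a part in the order of libraries was not tested. Each line gives 250 bases before a RefSeq start on GRCm38.p6, in the direction of transcription, in windows that overlap no annotated exon. Capitals mark words searched on both strands: ACAAAG and its close variants ACAATG and, as a further form, AACAAT, which are cores bound by SOX factors such as SOX10, and the word GCGTGGG, a core bound by EGR factors such as EGR2. SOX10 and EGR2 are the transcription factors known to drive myelin genes in Schwann cells. Every window clear of exons that holds such a word is shown. The upstream Ncmap window and the other Pmp22 windows clear of exons hold none of the words and are not shown.
Prx, chr7:27499074-27499323, plus strand: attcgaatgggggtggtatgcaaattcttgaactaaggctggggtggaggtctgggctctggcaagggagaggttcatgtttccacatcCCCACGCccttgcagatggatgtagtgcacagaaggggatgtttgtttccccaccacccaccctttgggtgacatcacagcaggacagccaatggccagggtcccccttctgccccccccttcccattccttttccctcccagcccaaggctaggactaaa
Ncmap, downstream start, chr4:135385673-135385922, minus strand: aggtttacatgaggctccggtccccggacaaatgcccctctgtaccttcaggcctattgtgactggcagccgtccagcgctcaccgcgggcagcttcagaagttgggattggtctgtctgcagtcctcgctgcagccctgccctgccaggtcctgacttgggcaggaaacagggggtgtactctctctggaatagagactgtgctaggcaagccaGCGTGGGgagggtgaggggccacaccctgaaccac
Mag, most upstream start, chr7:30914923-30915172, minus strand: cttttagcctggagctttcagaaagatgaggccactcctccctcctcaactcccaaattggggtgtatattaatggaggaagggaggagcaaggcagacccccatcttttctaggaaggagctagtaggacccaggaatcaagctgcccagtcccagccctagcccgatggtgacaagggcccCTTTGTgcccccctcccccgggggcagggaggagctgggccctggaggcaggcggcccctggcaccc
Pmp22, most upstream start, chr11:63128732-63128981, plus strand: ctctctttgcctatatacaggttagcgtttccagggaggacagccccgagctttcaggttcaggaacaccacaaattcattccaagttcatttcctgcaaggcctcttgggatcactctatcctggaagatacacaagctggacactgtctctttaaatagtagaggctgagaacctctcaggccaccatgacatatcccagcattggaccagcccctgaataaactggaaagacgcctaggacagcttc

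RefSeq windows were matched for 6 of the 8 genes, 13 windows in all. GCGTGGG stood 161 bases before the Prx start, on the opposite strand, and 35 bases before the downstream Ncmap start. It was in 2 of the 13 windows, against 4.30% of all 32851 RefSeq windows. ACAAAG stood 67 bases before the Mag start, on the opposite strand. It was in 2 of the 13 windows, both at overlapping starts of Mag, against 16.5% of all windows. ACAATG (10.7% of all windows) and AACAAT (9.42%) were in none of the 13. A word match is a description of the sequence and not a bound site.

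The sum of the pan-neuronal genes had another order of libraries than the myelin genes. It stood at 13015, 15180, 15029 and 13758 CPM in replicates 1 to 4, highest in replicate 2 and lowest in replicate 1. All 10 genes were detected and 0 had the order of libraries of the myelin genes, against 15.9% of all detected genes, a count near the background. The myelin sum over the neuronal sum was −0.41, −0.95, −0.62 and −1.14 on the log2 scale, a mean of −0.78 ± 0.33 (SD, n = 4). In CPM the myelin sum was thus below the neuronal one in 4 of 4 libraries, least so in replicate 1 and most so in replicate 4. The lists hold 8 and 10 genes and CPM is not corrected for length. Which sum is higher therefore depends on the genes chosen and on their lengths. Nefl, a neurofilament gene of myelinated neurons, was at 4680, 5856, 5163 and 4739 CPM, and the neuronal tubulin gene Tubb3 at 2844, 2983, 3026 and 2905 CPM. In a bulk library, fewer Schwann cells and less myelin mRNA on ribosomes per cell cannot be told apart.

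Genes named for glia without myelin were summed in 2 lists. Summed satellite glia genes stood at 6913, 6833, 7799 and 7943 CPM in replicates 1 to 4, a mean of 7372 CPM. Apoe alone had 6502 ± 522 CPM (SD, n = 4), so the profile of this sum is mainly that of Apoe. Of the 6 satellite glia genes, all detected, 0 had the order of the myelin genes. The list of non-myelinating Schwann cell genes summed to 4151, 4216, 3689 and 4171 CPM, and 1 of its 8 genes, all detected, had that order. With 15.9% of all detected genes in that order, counts of 0 of 6 and 1 of 8 are near the background. L1cam, Scn7a and Ncam1 led the non-myelinating Schwann cell list, at means of 1434, 1155 and 578 CPM. L1cam and Ncam1 are also neuronal genes, so the sum of that list does not measure those glia alone.

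Genes of muscle, fat, fibroblasts and macrophages differed between libraries too. All 8 skeletal muscle genes were detected and summed to 7323, 1702, 3621 and 2179 CPM, led by Ttn, Acta1 and Myh4. Of 6 adipocyte genes 5 were detected, with sums of 314, 139, 316 and 173 CPM, and Lep was not detected. Fibroblast genes summed to 18046, 10235, 12940 and 13733 CPM, led by Col1a1, Col1a2 and Dcn, and macrophage genes to 391, 277, 325 and 313 CPM, with all 6 of each detected. The order of the myelin genes was found in 0 of the 8 muscle genes, 2 of the 5 detected adipocyte genes, 2 of the 6 fibroblast genes and 0 of the 6 macrophage genes, against 15.9% of all detected genes. With TMM factors the fibroblast count was 1 of 6 and the other 3 counts were as before. In all 4 of these lists replicate 1 or 3 was highest, as in the myelin genes. Replicate 2, though, was their lowest library, below replicate 4, where the myelin genes were lower in replicate 4. The part of these cell types in the myelin result was not tested.

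Oligodendrocyte genes were measured because Mbp and Mag are made in those cells too. Its 11 genes summed to 183, 135, 186 and 161 CPM in replicates 1 to 4, and the median gene stood at 2.31 ± 0.71 CPM (SD, n = 4). Most of the sum was Cldn11 at 95.7 ± 13.8 CPM and Aspa at 51.6 ± 9.53 CPM. Olig2 and Opalin were not detected, at means of 0.497 and 0.471 CPM, and neither was Hapln2 at 1.12 CPM. The other 6 genes, Olig1 and Mobp among them, were detected at means of 1.74 to 4.38 CPM. Of its 8 detected genes 0 had the order of the myelin genes, near the 15.9% of all detected genes, and no gene of the list was at 0 in all libraries. The part of oligodendrocytes in the levels of Mbp and Mag was not tested.

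**Figure D3:**
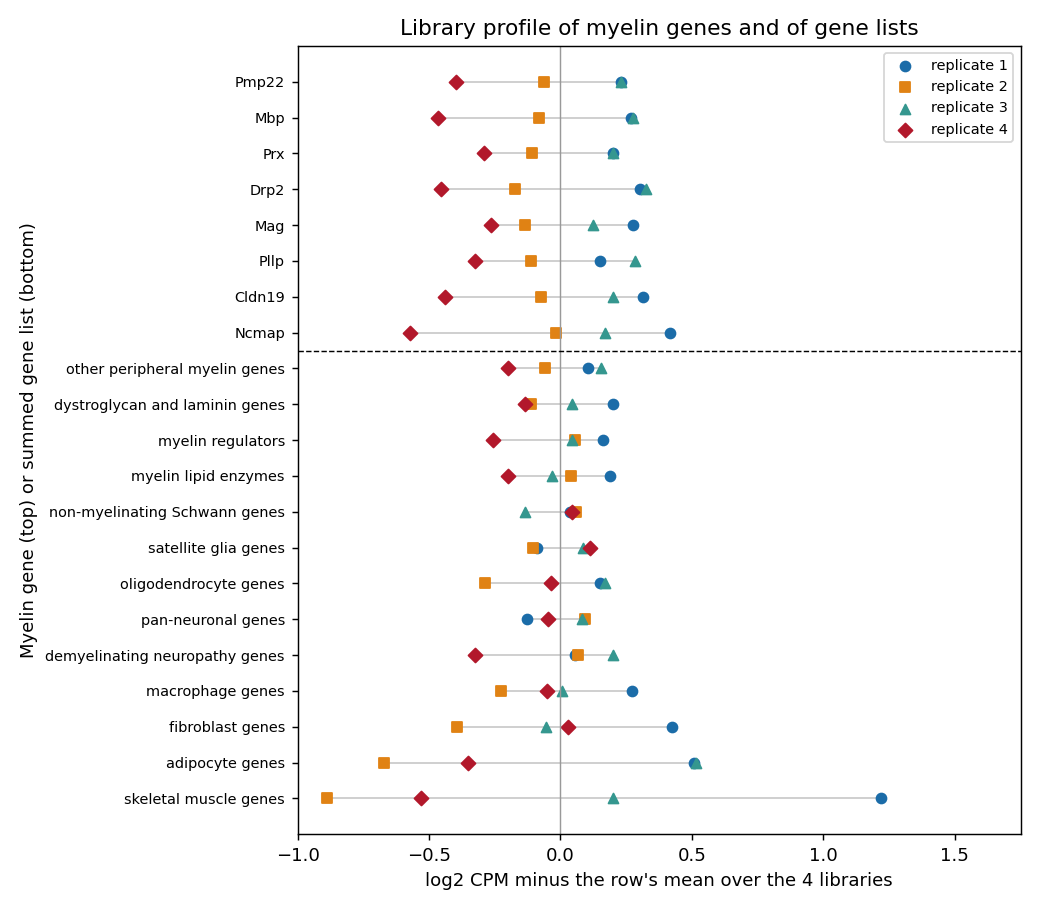
log2 CPM of each myelin gene (above the dashed line) and of each summed gene list (below it) minus its own mean over the 4 libraries, with 1 point per library. In all 8 myelin genes replicate 4 is leftmost and replicate 2 next; the neuronal and satellite glia lists stay close to 0 and the skeletal muscle list has its lowest point at replicate 2.

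Most further genes of myelin structure were also high in replicates 1 and 3. All 8 genes of this list were detected, and 7 of them had the order of libraries of the 8 described genes, beside 15.9% of all detected genes. After rescaling to the reads outside mt-Rnr1 and mt-Rnr2 it was 5 of 8, beside 11.4%, and with TMM factors 4 of 8, beside 8.79%. The exception before rescaling was Cnp, a nucleotide phosphodiesterase of myelin, at 462, 357, 516 and 370.1 CPM, which was lowest in replicate 2. The tetraspanin gene Cd9, which many cell types express, lay between 961 and 1060 CPM with a coefficient of variation of 4.96%.

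Partners of periaxin at the basal lamina did not stand out by the order of libraries. All 11 dystroglycan, dystrophin-family and laminin genes were detected and 3 had the order, near the 15.9% of all detected genes. With TMM factors the count was 0, against 8.79%, and it was 0 after each of the other rescalings too. Of 11 regulators of myelination, all detected, 4 had it, and 3 with TMM factors, beside the same 15.9% and 8.79%. Dag1, which encodes dystroglycan, had that order at 697.5, 617.5, 642 and 531 CPM. Utrn, a dystrophin relative, and Lama2, a laminin of the Schwann cell basal lamina, were lowest in replicate 2. Among the regulators, Sox10 stood at 188, 179, 169.7 and 132 CPM and was also lowest in replicate 4. So were 10 of the 11, Sox10 included, against 33.9% of detected genes. That count of lowest libraries was made before rescaling only. Zeb2 had the full order before rescaling, with replicates 2 and 3 close at 132 and 137 CPM. It lost that order after rescaling to the reads outside mt-Rnr1 and mt-Rnr2. Erbb3, a neuregulin receptor gene, was lowest in replicate 2. Whether the lists differ from each other in this count was not tested.

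Of the enzymes of myelin lipids, all 9 were detected and 3 had the order, or 2 with TMM factors, against 15.9% and 8.79% of all detected genes. Ugt8a, which makes galactosylceramide, was at 379.5, 271, 384 and 287 CPM, high in replicates 1 and 3. Scd2, a fatty acid desaturase gene, was at 2367, 2212, 1802 and 1590 CPM, lowest in replicate 4 but with replicate 2 above replicate 3. All 7 genes of inherited demyelinating neuropathy were detected and 2 had the order, with or without TMM factors, beside the same shares of all detected genes, but none of the 3 highest, Ndrg1, Gdap1 and Mtmr2. Ndrg1, which is mutated in 1 such disease, was at 1167, 1203, 1312 and 873 CPM.

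The spread between libraries was then tested for every gene. A gene's variance of log2(CPM + 1) was compared in limma with the variance usual at its level, over the 15728 genes that averaged 1 CPM or more. The SD was 0.35 in Mbp, 0.30 in Pmp22, 0.24 in Prx, 0.38 in Drp2 and 0.41 in Ncmap, against 0.12, 0.12, 0.13, 0.14 and 0.15 for genes of the same level. The median SD was 0.32 over the 8 genes and 0.18 over all detected genes. None of the 8 passed, with limma adjusted p of 0.24 in Mbp, 0.29 in Ncmap and Drp2, 0.43 in Pmp22, 0.53 in Cldn19, 0.81 in Prx, 0.83 in Pllp and 0.93 in Mag. In all, 1.54% of genes passed. At an unadjusted p under 0.05 there were 5 of the 8, against 6.61% of all genes. That count was 3 of the 8 with TMM factors and 4 of the 8 after each of the other rescalings.

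The spread was smaller without replicate 4. Without replicate 4 none of the 8 genes had an unadjusted p under 0.05, and the SD of Mbp was 0.20 and that of Pmp22 0.17. When all 29512 genes with any read were tested instead, 4 of the 8 passed, with limma adjusted p of 8.3e-05 in Mbp, 0.0012 in Pmp22, 0.013 in Drp2 and 0.016 in Ncmap, and the share of genes that passed was 2.57%. The test of these genes thus turns on the filter on low values.

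**Figure D4:**
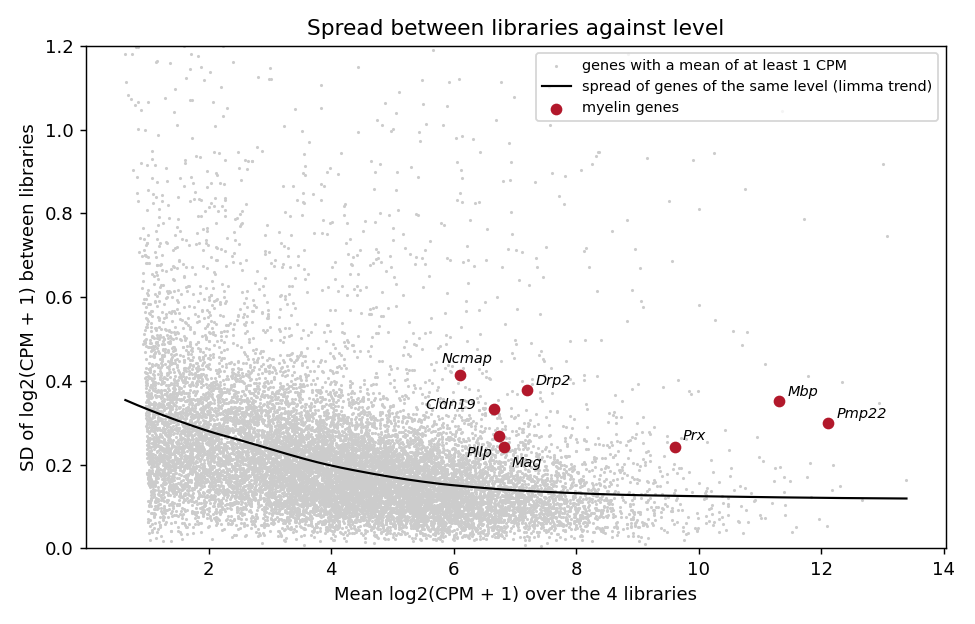
SD of log2(CPM + 1) between the 4 libraries against the mean log2(CPM + 1) for each gene that averaged 1 CPM or more; the black line is limma's trend for genes of the same level, and 99 genes with an SD above 1.2 are not drawn. All 8 myelin genes lie above the line, at SDs of 0.24 to 0.41.

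Genes whose profile over the 4 libraries was nearest to the mean profile of the 8 were sought among the 9896 genes that averaged 10 CPM or more. Outside the lists, the nearest were Ube2l6, Tcf3, Il34, Limk1 and Lims2, with root-mean-square differences of 0.023 to 0.029 on the log2 scale. Ube2l6 stood at 39.1, 31.2, 39.6 and 25.0 CPM, and Limk1, a kinase gene of the actin cytoskeleton, at 60.2, 48.6, 61.2 and 39.2 CPM. Among the 8 genes themselves, which make up the profile, Pmp22 was nearest at 0.025 and Ncmap farthest at 0.12, rank 354. With 4 libraries many genes share a profile, so this likeness is a description.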

How the data were processed

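Ribosome footprints of 4 libraries were analysed. The authors deposited 1 table, named TPM, with 48431 genes. Each column sums to 1000000, and all genes, short or long, share a smallest step, the value of 1 read: within 0.05 of a read, 96.4% to 96.7% of nonzero values were whole numbers of it. The deposited values were therefore read as CPM, not corrected for length. Per the submitters' processing notes, the tools were TopHat2 2.1.1, Bowtie2 2.2.9, Cufflinks 2.2.1 and FastQC 0.11.5, and the builds GRCm38.p4 and mm10. How reads were counted, and on which annotation release, is not given in the sources used here.

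Coding lengths and coordinates came from GENCODE M21 on GRCm38, which matched 48052 identifiers, and promoters from RefSeq on GRCm38.p6. The variance test used limma 3.58.1 on log2(CPM + 1) with a trended, robust prior and Benjamini-Hochberg adjustment over all genes. It was tried on simulated libraries of these depths, with 1 library changed. It found 64% of the genes changed 2-fold and 98% of those changed 4-fold among 15727 genes, with 6 false calls. The simulation gave every gene the same spread beyond counting error, which the deposited genes need not have. These shares are therefore no measure of the power of the test on the deposited values. Sign-flip permutation tests were exact and 2-sided. All p-values rest on library-to-library spread alone, which may be technical. The members and lists were chosen with earlier results of these data known. The rule for named genes took all members, of each list the 3 highest detected and the undetected genes, and the 5 genes of nearest library profile. Some genes that the rule takes are not reported here.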

Additional observations from a re-analysis of the deposited data

Results flagged for a closer look

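Of 66 groups of 4 values checked for a library far from the others, 3 were picked out, and chance picks out about 1 in 20. None was a myelin gene or the myelin sum. Replicate 3 lay below the other libraries in the sum of non-myelinating Schwann cell genes, at 3689 CPM, and in Scn7a, a gene of that list, at 1047 CPM. Replicate 4 lay above the others in Gdap1, a demyelinating neuropathy gene, at 60.6 CPM.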

How the results depend on the processing

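The median of the 8 genes above the median detected gene kept its direction under all alternatives, at 2.61 to 2.79 on the log2 scale, and was 3.99 with the mean of the 8 in place of the median, and the count of separated neighbour pairs per kilobase, 5 of 7, stayed within 1.5 times. The 242 genes with a high variance became 106 to 205 when 1 library was left out (148 without replicate 2 and 106 without replicate 3) and 757 with any value above 0, where more low genes were tested. The number of the 8 genes highest in the same library, 5, was 5 to 8 when 1 library was left out, and 8 without replicate 1 or 3. The log2 of the myelin sum over the neuronal sum was −0.78, and −2.69 with list medians, which give Pmp22 and Mbp less weight. Leaving mitochondrial genes and the 20 genes of highest mean out of the total moved the median gene by 0.21 (log2). The planned test on counts was not run because some deposited values are fractions of a read, nor was the planned protein length; the median coding length was chosen after seeing the data. No paired analysis was possible because there was 1 group.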

Other observations

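Among listed genes outside the 8, Sbf2, which encodes a binding partner of the phosphatase made by Mtmr2 and is mutated in a demyelinating neuropathy, had the library profile nearest to theirs, at 49.4, 38.9, 47.6 and 32.0 CPM in replicates 1 to 4 and rank 3 of 9896 genes. Cers2, a ceramide synthase gene of very long chain lipids, ranked 23 at 322, 263, 320.2 and 221 CPM. Both were chosen after their values were seen, and the likeness was not tested.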
